A study of Mus musculus with 6 samples.

Results

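The genes described here encode the mTOR kinase complexes, the TSC complex that restrains them, the Rag GTPase machinery that senses amino acids, and regulators that feed into both from insulin signalling and stress. They were taken as a named list of 44 genes, and 43 of them had a probe set that the platform annotation assigns to a single gene; Rps6kb1 was not analysed here. Of these 43, 42 passed the filter on dim probe sets and were tested among 17020 genes in all; Rragb did not pass it. Each gene is represented by its probe set with the highest mean over all 6 arrays. The rule that picks them uses gene names and no measured value, though earlier results of these data were known when the list was made.

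RNA came from growth plate chondrocytes of the hindlimb of mice 30 days after birth, on one single-channel Affymetrix array per sample. There were 3 control samples and 3 samples from mice with a conditional mutation of Lkb1 (Stk11). Both groups had a mixed background given as FVB, 129S6 and C57CL/6, and the mutants are labelled Lkb1 mutant with no further allele. Not given in the sources used here are the driver of the conditional mutation, the genotype of the controls and any pooling of animals. The titles give the samples as biological replicates without tying them to separate animals, so every p-value here rests on the spread between samples, which may be in part technical.

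mTOR is a kinase that acts in a pair of complexes. mTORC1, built on Raptor, promotes protein synthesis through S6 kinases and by releasing eIF4E from the 4E-BP proteins, while mTORC2, built on Rictor, phosphorylates AKT. The TSC complex switches off the small GTPase Rheb, the direct activator of mTORC1, and the Rag GTPases bring mTORC1 to the lysosome when amino acids are present. LKB1 activates AMPK, which phosphorylates Tsc2 and Raptor and so restrains mTORC1; the comparison of mutant with control therefore asks here whether transcripts of this machinery differ when Lkb1 is mutated. This regulation acts on proteins, and the arrays measured transcripts only.

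Of the 42 members tested, 6 passed the test, 3 higher and 3 lower in the mutants. Irs1, Sesn3 and Ddit4 rose, and Sesn2, Eif4ebp1 and Eif4ebp2 fell. The share called, 14.3%, was close to the 14.7% called among all genes tested. By direction, 7.14% of the members rose and 7.14% fell, against 7.84% and 6.82% of all genes. The groups did not overlap for 16 members (38.1%), against 36.7% of all genes; 7 members were higher without overlap and 9 lower, against 20% and 16.7% of all genes. The median difference was -0.02 over the members and 0.03 over all genes, on the log2 scale. A call is an adjusted p below 0.05 from limma, a linear model with a moderated variance, adjusted by the Benjamini-Hochberg method over all genes. Levels are log2(intensity + 1), differences are mutant minus control on that scale, and an adjusted p below always comes from this limma fit. Unadjusted p-values by role come from the same fit, and 11 of the 42 members had one below 0.05. The share of all genes below that cutoff is not given here, beyond being at least the 14.7% called. Counts by role at that cutoff therefore cannot be read as few or many.

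**Figure D1:**
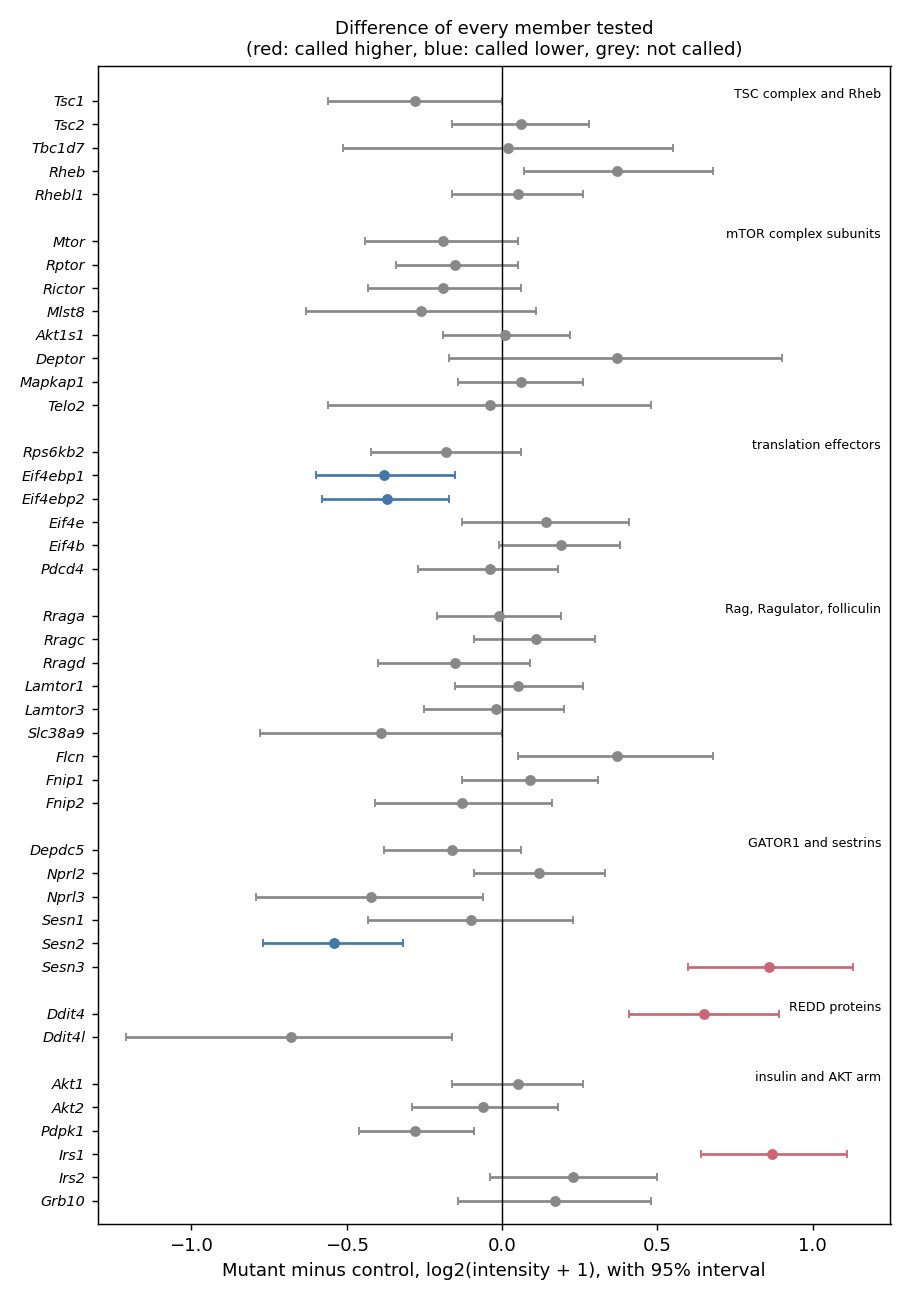
Mutant minus control difference of the 42 members tested, in log2(intensity + 1), with the 95% interval of the limma fit, arranged by role. Irs1, Sesn3 and Ddit4 lie right of 0 and Sesn2, Eif4ebp1 and Eif4ebp2 left of it in colour; the 36 grey members were not called.

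Markers of several cell types differed between the groups along with the genotype. Stk11 was at 8.68, 9.08 and 9.67 in control replicates 1, 2 and 3 and at 7.39, 7.51 and 7.52 in the mutants (difference -1.67, SE 0.22, adjusted p = 0.00387). Where its probes lie relative to the deleted part was not analysed here. Cartilage markers were well expressed in both groups, with a mean level of 11.02 to 11.24 in the controls and 11.08 to 11.19 in the mutants over 15 genes. Of these, Matn1 was called higher (difference 1.28, adjusted p = 0.0248), Sox6 was called lower (-0.38, adjusted p = 0.0282) and 13 were not called. Prehypertrophic and hypertrophic markers were lower in the mutants, with a mean of 9.80 to 10.14 in the controls and 9.23 to 9.36 in the mutants over 8 genes, of which 5 were called lower. Of 29 listed erythroid, neutrophil and B lymphoid markers, 26 were measured, and their mean was 8.56, 9.33 and 10.05 in control replicates 1, 2 and 3 against 6.01 to 6.30 in the mutants. Background was taken as the 95% point of olfactory receptor probe sets on each array (6.40 to 6.73); 25 of these 26 markers exceeded it in all controls and 5 in all mutants, with 0 of 7 erythroid genes among the latter. Fibrous tissue markers had a mean of 9.04 to 9.68 in the controls and 10.84 to 10.96 in the mutants (8 of 10 called higher). All 9 endothelial markers were higher in the mutants, 7 of them called. Of 9 macrophage markers 8 were higher, 7 of them called, and Mpeg1 was lower (difference -0.76, not called). Of 4 osteoblast markers 1 was called lower, and of 8 skeletal muscle markers 2 were called higher. In such bulk samples, fewer cells of a type and less RNA per cell cannot be told apart.

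The TSC complex and Rheb set the switch directly above mTORC1, and 0 of the 5 genes passed the test, with 1 of 5 at an unadjusted p below 0.05. Tsc2, which carries the complex's activity toward Rheb, was at 8.41, 8.29 and 8.54 in control replicates 1, 2 and 3 and at 8.47, 8.50 and 8.44 in the mutants. Its groups overlapped, and the difference of 0.06 had a 95% interval of -0.16 to 0.28. Tsc1, which stabilises Tsc2, was at 7.52, 7.38 and 7.75 in the controls and at 7.37, 7.28 and 7.16 in the mutants. All 3 mutants were below the lowest control, by a margin smaller than the spread among the controls (difference -0.28, SE 0.12, adjusted p = 0.172). Rheb was at 9.63, 9.71 and 9.25 in the controls and at 9.86, 9.95 and 9.90 in the mutants. Every mutant array was above the controls, of which replicate 3 was the lowest (difference 0.37, 95% interval 0.07 to 0.68, adjusted p = 0.101). Tbc1d7, the third subunit of the TSC complex, differed by 0.02 and had the largest spread among the controls of these 5 genes (SD 0.51). It did not exceed the background in control replicate 3. Rhebl1, a close relative of Rheb, did not exceed the background on any array.

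The subunits of the mTOR complexes themselves were not called either, 0 of 8 genes and also 0 of 8 at an unadjusted p below 0.05. Mtor, the kinase, was at 7.15, 7.14 and 7.33 in the controls and at 6.87, 7.09 and 7.08 in the mutants. Rptor, which encodes the mTORC1 scaffold Raptor, was at 7.72, 7.62 and 7.57 in the controls and at 7.50, 7.48 and 7.48 in the mutants. Rictor, which encodes the mTORC2 scaffold, was at 8.08, 7.99 and 8.19 in the controls and at 7.98, 7.75 and 7.97 in the mutants. For these 3 genes the mutants lay below all controls, but the gap was small. The differences were -0.19 for Mtor (95% interval -0.44 to 0.05), -0.15 for Rptor (-0.34 to 0.05) and -0.19 for Rictor (-0.43 to 0.06), with adjusted p of 0.271 to 0.293. Mlst8, a subunit of both complexes, differed by -0.26 and followed the rise of the marrow markers across the controls, at 6.80, 6.99 and 7.44. Deptor, an inhibitory subunit, was at 9.24, 8.54 and 8.40 in the controls and at 9.38, 8.96 and 8.94 in the mutants. Its groups overlapped because control replicate 1 lay within the mutant range (difference 0.37, SE 0.23, adjusted p = 0.342). Without that array Deptor was called (0.62, adjusted p = 0.031), in a fit that called 19.3% of all genes. Without any other 1 array it was not called (adjusted p up to 0.64). Against control replicate 1 alone the difference was -0.15, with no test. Akt1s1, which encodes the mTORC1 inhibitor PRAS40, Mapkap1, which encodes the mTORC2 subunit Sin1, and Telo2, which helps assemble mTOR, differed by 0.01, 0.06 and -0.04.

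**Figure D2:**
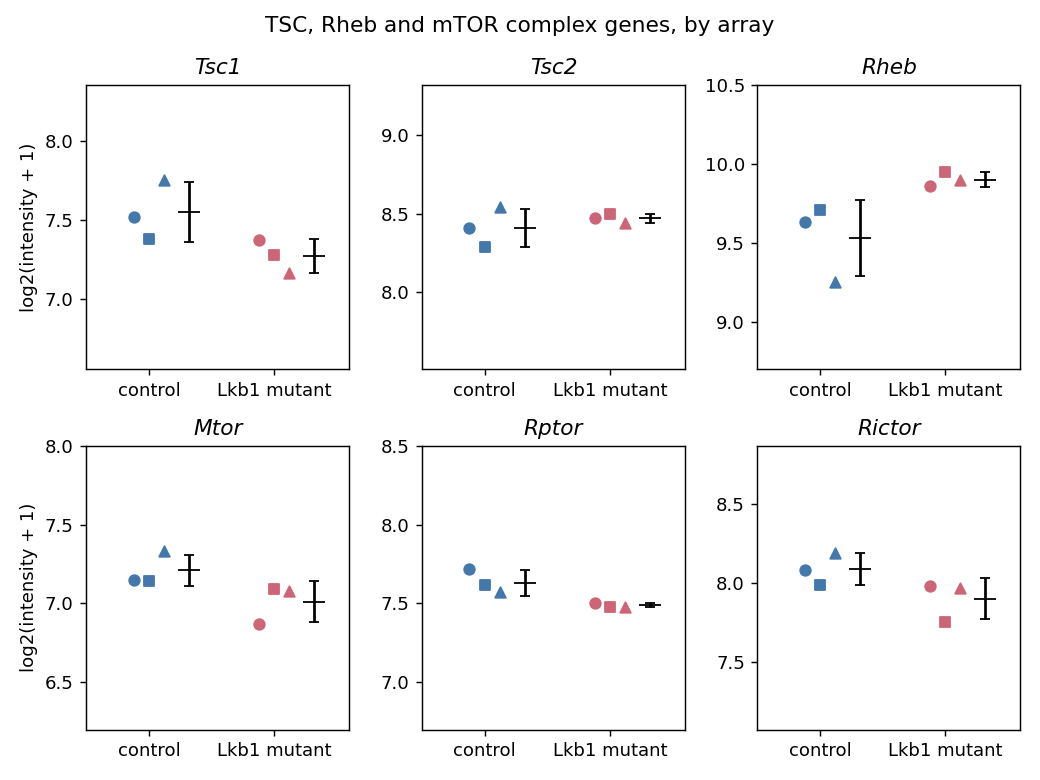
Level of Tsc1, Tsc2, Rheb, Mtor, Rptor and Rictor in log2(intensity + 1) on each array, with circles, squares and triangles for replicates 1, 2 and 3 and black bars for the group mean and SD. All panels span the same log2 range; the Rheb points of the mutants lie above the controls, and none of these 6 genes was called.

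Among the effectors through which mTORC1 controls translation, both measured 4E-BP genes fell and the other 4 genes were not called. The 4E-BP proteins bind and block the cap-binding protein eIF4E until mTORC1 phosphorylates them. Eif4ebp1 was at 10.03, 9.91 and 9.84 in control replicates 1, 2 and 3 and at 9.58, 9.44 and 9.64 in the mutants. Eif4ebp2 was at 9.48, 9.46 and 9.63 in the controls and at 9.10, 9.14 and 9.21 in the mutants. The groups were separate for both genes, and both were 1.30-fold lower in the mutants. The difference was -0.38 for Eif4ebp1 (SE 0.10, adjusted p = 0.0421) and -0.37 for Eif4ebp2 (SE 0.09, adjusted p = 0.0314). These are the calls nearest the threshold. That of Eif4ebp1 ended without control replicate 1 or 2 or any 1 mutant array (adjusted p of 0.0713 to 0.155) and with other normalisation or no filter (up to 0.0768). That of Eif4ebp2 ended without control replicate 2 or any 1 mutant array (0.0715 to 0.112), and both ended with the replicate number as a block (0.0775 and 0.0577).

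Eif4e, the target of the 4E-BPs, was at 9.05 ± 0.11 in the controls and at 9.19 ± 0.17 in the mutants (SD, n = 3 each), and its groups overlapped (difference 0.14, 95% interval -0.13 to 0.41). It had 3 probe sets of 1 gene, whose differences were 0.14, 0.25 and 0.03; where their probes lie, and whether they also match a processed copy of the gene, was not analysed here. Eif4b, a helicase cofactor that S6 kinase phosphorylates, was at 10.41 to 10.50 in the controls and 10.59 to 10.66 in the mutants. The groups did not overlap but the difference of 0.19 was not called (adjusted p = 0.181). Rps6kb2, an S6 kinase gene, differed by -0.18 and Pdcd4, a translation inhibitor that S6 kinase marks for degradation, by -0.04.

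None of the 9 tested genes of the Rag GTPases, Ragulator and folliculin passed the test, and 1 of 9 had an unadjusted p below 0.05. That gene was Flcn, which encodes folliculin, an activator of RagC and RagD. It was at 7.88, 7.67 and 8.20 in the controls and at 8.30, 8.29 and 8.26 in the mutants. The mutants were close together and above each control, with control replicate 3 nearest to them (difference 0.37, SE 0.14, adjusted p = 0.12). Without that control Flcn was called (0.51, adjusted p = 0.0163), and without any other 1 array it was not (adjusted p up to 0.289). Its partners Fnip1 and Fnip2 differed by 0.09 and -0.13. Rraga and Rragc, which encode RagA and RagC, differed by -0.01 and 0.11, and Lamtor1 and Lamtor3, subunits of the Ragulator that anchors the Rags, by 0.05 and -0.02. A second probe set of Lamtor1 differed by 0.19, with groups that did not overlap, and that of Lamtor3 by -0.01. When both probe sets of Lamtor1 were averaged, the difference was 0.12 and was not called (adjusted p = 0.403). Rragb and Rragd did not exceed the background on any array. Slc38a9, a lysosomal arginine sensor, was at 7.89, 8.07 and 8.51 in the controls, rising with the marrow markers, and at 7.94, 7.72 and 7.64 in the mutants (difference -0.39, adjusted p = 0.172). Its second probe set did not exceed the background on any array and differed by -0.12.

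The sestrins moved in opposite directions. These stress-induced proteins restrain mTORC1 through GATOR2, and Sestrin2 is a leucine sensor. Sesn3 was at 8.10, 8.13 and 7.77 in control replicates 1, 2 and 3 and at 8.86, 8.87 and 8.85 in the mutants. The mutants lay within a narrow range well above the controls, of which replicate 3 was the lowest. Sesn3 rose by 0.86 (SE 0.11, 1.82-fold, adjusted p = 0.00358). Sesn2 was at 9.07, 9.02 and 8.83 in the controls and at 8.35, 8.46 and 8.47 in the mutants. Every mutant was below every control, and Sesn2 fell by 0.54 (SE 0.10, 1.46-fold lower, adjusted p = 0.0112). Without mutant replicate 1 or 3 the adjusted p of Sesn2 was 0.0527 and 0.0517. Sesn1 was at 7.74, 7.77 and 8.05 in the controls and at 7.99, 7.55 and 7.72 in the mutants, with overlapping groups (difference -0.10, 95% interval -0.43 to 0.23).

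GATOR1 switches off RagA and RagB when amino acids are scarce, and 0 of its 3 genes passed the test, with 1 of 3 at an unadjusted p below 0.05. Depdc5 differed by -0.16 and Nprl2 by 0.12, but Nprl2 lay near the background, which 0 of 3 controls and 2 of 3 mutants exceeded. Nprl3 was at 6.93, 6.96 and 7.45 in the controls and at 6.71, 6.55 and 6.79 in the mutants, with the mutants below all controls (difference -0.42, 95% interval -0.79 to -0.06, adjusted p = 0.115). Its highest value was in control replicate 3, the array with the most marrow signal, and 2 of the 3 mutants exceeded the background.

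The REDD proteins, induced by hypoxia, glucocorticoids and other stress, restrain mTORC1 through the TSC complex. Ddit4, which encodes REDD1, was at 7.94, 7.89 and 7.87 in the controls and at 8.54, 8.39 and 8.71 in the mutants. The controls were nearly level and the mutants all higher, by 0.65 (SE 0.10, 1.56-fold, adjusted p = 0.00734). Ddit4l, which encodes REDD2, was at 9.99, 9.65 and 9.23 in the controls and at 9.30, 8.66 and 8.85 in the mutants. It had the largest difference of the uncalled members, -0.68 (95% interval -1.21 to -0.16, adjusted p = 0.0863), and mutant replicate 1 lay just above control replicate 3. Ddit4l was called without control replicate 3 (-0.88, adjusted p = 0.0328) and with the replicate number as a block (adjusted p = 0.0318). Without any other 1 array it was not called (adjusted p up to 0.246).

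In the insulin arm, which activates mTORC1 through AKT, Irs1 rose and the other 5 genes were not called. Irs1, an adaptor between the insulin and IGF receptors and PI3K and a known point of feedback from S6 kinase, was at 7.91, 7.84 and 7.80 in the controls and at 8.69, 8.60 and 8.88 in the mutants. The groups were far apart against their spread, and Irs1 rose by 0.87 (SE 0.10, 1.83-fold, adjusted p = 0.0021), the largest difference of all members tested. A second probe set of Irs1 did not exceed the background on any array, at 5.39 to 5.92 in the controls and 5.68 to 5.89 in the mutants. When it was averaged in, the difference was 0.53. Irs2, the related adaptor, was at 8.86, 8.54 and 8.49 in the controls and at 8.82, 8.87 and 8.89 in the mutants. Control replicate 1 was within the mutant range (difference 0.23, 95% interval -0.04 to 0.50). Without that array Irs2 was called (0.35, adjusted p = 0.0377), in a fit that called 19.3% of all genes. Without any other 1 array it was not called (adjusted p up to 0.455). Against control replicate 1 alone the difference was 0, with no test. Pdpk1, the kinase that activates AKT and S6 kinase, had the least spread of the members, at 9.75, 9.75 and 9.72 in the controls and 9.47, 9.45 and 9.47 in the mutants. The groups were clearly separate, but its difference of -0.28 missed the threshold (SE 0.08, adjusted p = 0.0554) and passed it with a filter at the median, an intensity trend or a larger pseudocount (0.0296 to 0.0412). Akt1, Akt2 and Grb10, an adaptor that inhibits insulin signalling and is an mTORC1 substrate, differed by 0.05, -0.06 and 0.17. The other probe set of Akt2 differed by -0.03, and the same doubt about copies applies to this gene.

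**Figure D3:**
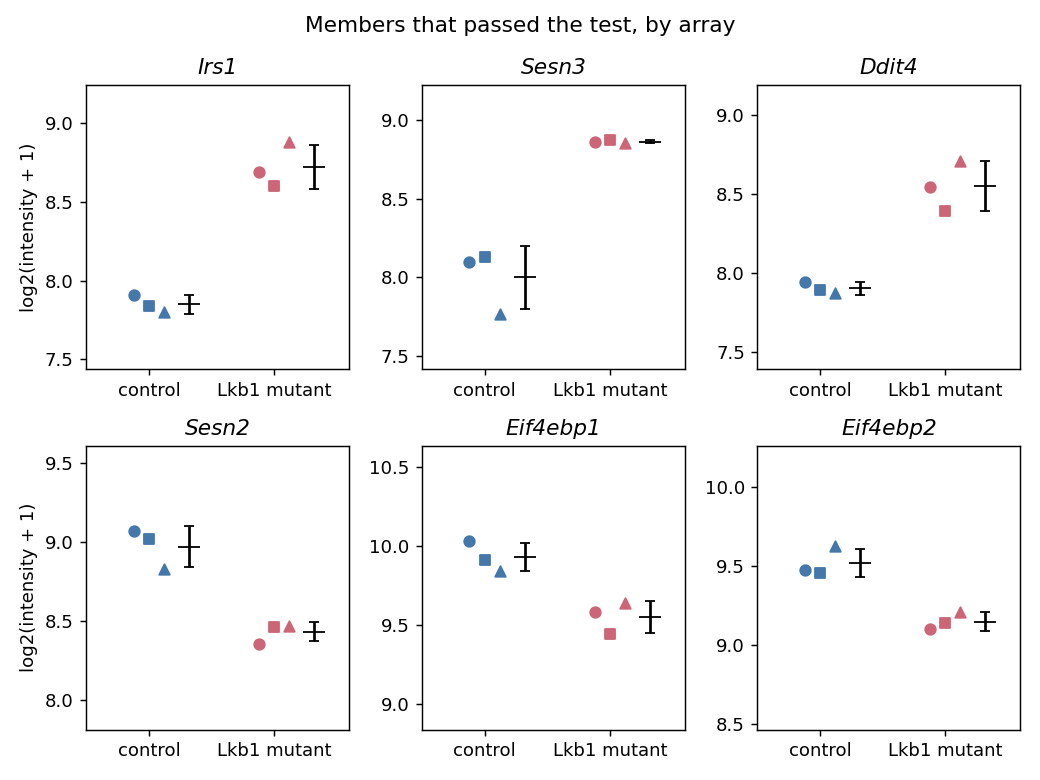
Level of the 6 called members in log2(intensity + 1) on each array, with circles, squares and triangles for replicates 1, 2 and 3 and black bars for the group mean and SD. All panels span the same log2 range; in each gene the 3 mutants lie on one side of the 3 controls.

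The 3 families with members that differed in their call were compared within each array, pairs picked with their values in view. Sesn3 minus Sesn2 was -0.97, -0.89 and -1.06 in the controls and 0.50, 0.41 and 0.39 in the mutants, a shift of 1.41. Ddit4 minus Ddit4l shifted by 1.33, from -1.72 ± 0.34 to -0.39 ± 0.33 (SD, n = 3 each). Irs1 minus Irs2 shifted by 0.64, from -0.78 ± 0.14 to -0.14 ± 0.13 (SD, n = 3 each). The mutants lay above the controls on all arrays in each of the 3 pairs. No test is given, since the pairs were picked for this pattern. Only the shift can be read, since levels of different probe sets are not on a common scale.

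The promoters of the members were searched for known elements. RefSeq windows (GRCm38.p6) of the 250 bases before the start were matched by symbol for 38 of the 43 measured members, and the other 5 were Deptor, Eif4ebp1, Lamtor3, Rhebl1 and Rps6kb2. The windows of Irs1 and Irs2 are shown because both hold the E-box CACGTG while the genes differed in their call, and those of Sesn2 and Sesn3 because these genes moved in opposite directions. They are written 5′ to 3′ along the gene, with matches to the elements searched in capitals.
Irs1, chr1:82291440-82291689 (minus strand): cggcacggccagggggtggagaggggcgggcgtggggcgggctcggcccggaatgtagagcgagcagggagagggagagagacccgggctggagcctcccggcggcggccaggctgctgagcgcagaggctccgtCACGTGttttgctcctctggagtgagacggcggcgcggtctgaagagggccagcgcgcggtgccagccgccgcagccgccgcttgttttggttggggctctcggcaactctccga
Irs2, chr8:11008930-11009179 (minus strand): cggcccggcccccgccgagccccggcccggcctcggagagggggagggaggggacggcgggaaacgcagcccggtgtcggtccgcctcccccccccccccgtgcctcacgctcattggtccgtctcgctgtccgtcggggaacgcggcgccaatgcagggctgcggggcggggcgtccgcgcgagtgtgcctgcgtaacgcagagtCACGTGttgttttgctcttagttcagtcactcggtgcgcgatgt
Sesn2, chr4:132510457-132510706 (minus strand): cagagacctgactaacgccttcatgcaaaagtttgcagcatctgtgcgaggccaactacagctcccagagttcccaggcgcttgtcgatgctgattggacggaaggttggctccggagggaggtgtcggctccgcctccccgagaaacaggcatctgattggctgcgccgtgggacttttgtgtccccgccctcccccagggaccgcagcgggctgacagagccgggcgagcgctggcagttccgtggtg
Sesn3, chr9:14276051-14276300 (plus strand): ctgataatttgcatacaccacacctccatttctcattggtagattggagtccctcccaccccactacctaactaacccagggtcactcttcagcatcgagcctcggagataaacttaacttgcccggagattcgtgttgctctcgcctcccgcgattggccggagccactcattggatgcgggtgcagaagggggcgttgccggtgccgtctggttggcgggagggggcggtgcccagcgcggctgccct

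The searched elements were, on both strands, TCACGTGA (the core of the CLEAR element, bound by TFEB and TFE3), CACGTG (the E-box, which lies within it), TGTTTAC (a FOXO element) and TGATGNAA (an ATF4 element). The E-box lay 115 bases before the start of Irs1 and 44 before that of Irs2. Neither sestrin window held any of these elements, and Ddit4 and Eif4ebp2 held none either. The E-box was found for 9 of the 38 members (23.7%), namely Eif4e, Fnip1, Irs1, Irs2, Lamtor1, Rheb, Rragb, Rragc and Tbc1d7, of which Irs1 was the only called gene. It was found for 6.86% of all genes with a window and for 8.83% of those that were also tested. The CLEAR core was in 0 of 38 members and 0.907% of all genes, the FOXO element in Akt1 and Mapkap1 (5.26%, against 3.54%), and the ATF4 element in Akt2 (2.63%, against 3.91%). Among genes with a window that were also tested, these elements were found for 1.41%, 2.93% and 2.82%. These are matches of letters in short windows, not binding sites.

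The arrays of each group were not equally alike. The SD was larger among the controls than among the mutants for 29 of the 43 members, with medians of 0.12 and 0.06; over all genes the medians were 0.155 and 0.0961. In the order of the controls by marrow signal (replicates 1, 2 and 3), Irs1, Ddit4, Sesn2 and Eif4ebp1 fell steadily, and Sesn3 and Eif4ebp2 had no steady order. The range over the controls was 0.12 for Irs1, 0.08 for Ddit4, 0.24 for Sesn2 and 0.19 for Eif4ebp1. Of the 36 uncalled members, 11 fell steadily, 9 rose steadily and 16 had no steady order. The share over all genes is not given here, and 3 arrays are too few to read a pattern from these orders. The mutants, with the least marrow signal, lay above the controls for Irs1 and Ddit4 and below them for Sesn2 and Eif4ebp1. Against control replicate 1 alone, the control with the least marrow signal, the difference was 0.81 for Irs1, 0.76 for Sesn3, 0.60 for Ddit4, -0.64 for Sesn2, -0.48 for Eif4ebp1 and -0.33 for Eif4ebp2, with no test. With the mean of the marrow markers as a covariate all 6 kept their sign and none was called by limma (at an unadjusted p below 0.05, 7 members or 16.7%, Sesn2 and Eif4ebp1 among them, against 20.7% of all genes); Irs1 was then at 0.52, Sesn3 at 0.22 and Sesn2 at -1.05. That mean separates the groups completely, so this fit extends the trend within groups over a range that holds no array. The part of hypertrophic cartilage, fibrous, endothelial and macrophage cells in these differences was not tested.

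**Figure D4:**
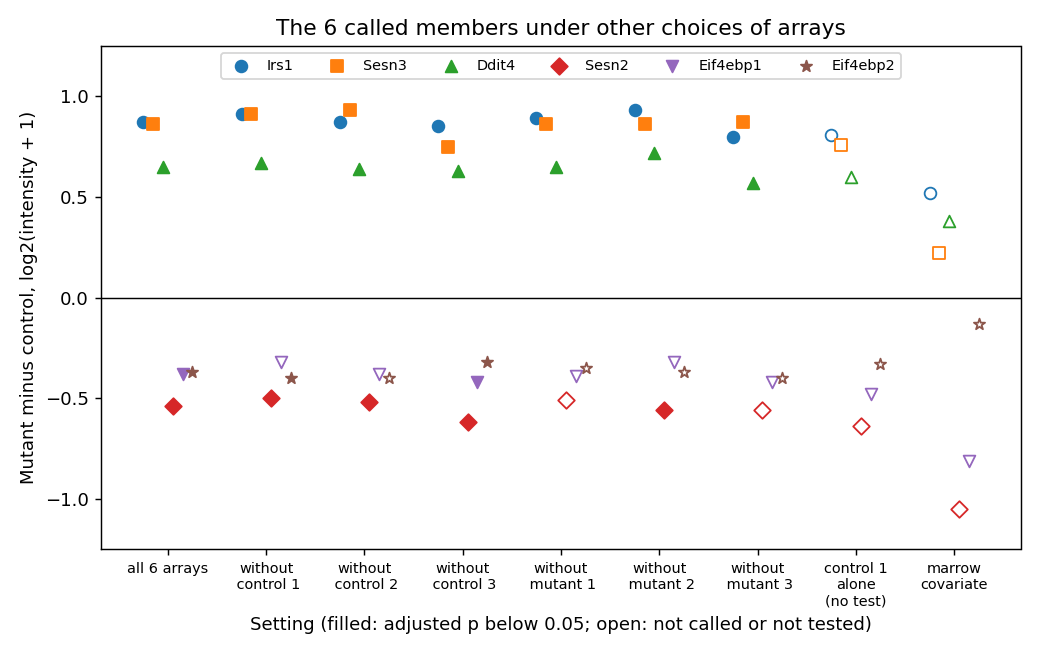
Mutant minus control difference of the 6 called members in log2(intensity + 1) with all 6 arrays, without each array, against control replicate 1 alone and with the marrow marker mean as a covariate; filled symbols passed an adjusted p of 0.05. Irs1, Sesn3 and Ddit4 stayed filled without any 1 array, and no symbol crossed 0.

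The uncalled members were measured with unequal precision. Of the 36, 26 had a 95% interval within 0.5 of no difference on the log2 scale, and 11 had one within 0.3. The other 10 were Tsc1, Tbc1d7, Rheb, Mlst8, Deptor, Telo2, Slc38a9, Flcn, Nprl3 and Ddit4l, of which Deptor had the widest. In simulated arrays the genes varied independently, and each had a normal spread pooled from the measured groups and equal in both. There the test called 26.3% of genes that differed by 0.5 and 77.6% of those that differed by 1. The larger spread among the measured controls and any variation shared between genes were not simulated. Over all runs 335 genes had each difference against 84100 unchanged, a far smaller share than the 14.7% called in the data. The adjusted cutoff is stricter when fewer genes differ, so these shares may be too low for the data. A missing call still does not show that a gene was equal in both groups.

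The rest of the pathway was examined through a list of 61 further genes, of which 57 were measured and tested. Mitf rose and Pik3cd fell, and the other 55 were not called, a share called of 3.51% against 14.7% of all genes. The median difference was -0.06, and 22 of the 57 (38.6%) had groups that did not overlap, against 36.7% of all genes. Pik3cd, a catalytic subunit of PI3K found mainly in leukocytes, was at 6.75, 6.73 and 6.86 in the controls and at 6.26, 6.14 and 6.00 in the mutants, where it did not exceed the background. It was called (adjusted p = 0.00621), and set against the background of the mutant arrays it was at least 1.15-fold lower. Mitf, which encodes a transcription factor related to TFEB, was at 6.59, 6.45 and 6.55 in the controls and at 7.03, 6.75 and 6.96 in the mutants. Of the controls, 1 exceeded the background, and the difference was 0.38 (adjusted p = 0.0484). Mitf was not called with other normalisation, with no filter, with the replicate block or without control replicate 2, control replicate 3 or any 1 mutant.

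By role, 0 of 17 genes of Ragulator, GATOR2 and amino acid sensing, 0 of 10 of mTOR complex assembly and mTORC2, 1 of 11 of receptors, PI3K and phosphatases, and 1 of 19 effectors and feedback genes were called by limma. At an unadjusted p below 0.05 these numbers were 4, 2, 4 and 5, and the share of all genes at that cutoff is not given here. Among those that were not called, Ndrg1, whose protein is a target of SGK1 downstream of mTORC2, was at 10.27, 10.44 and 10.10 in the controls and at 10.73, 10.55 and 10.62 in the mutants (difference 0.36, adjusted p = 0.0723). Foxo1, a transcription factor that AKT keeps out of the nucleus, was at 10.37, 10.45 and 10.38 in the controls and at 10.58, 10.61 and 10.66 in the mutants. Its groups were separate by a small margin (difference 0.22, adjusted p = 0.12). Ndrg1 and Foxo1 were picked with their values in view.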

How the data were processed

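The authors deposited a table of intensities on a linear scale, with 35512 probe sets on each array. Per the labels' protocols, 300 ng of total RNA was labelled with biotin by a whole-transcript kit; the sources used here do not give the summary and normalisation of the probes. Array medians were 82.4 to 90.5, and precision is limited by having 3 arrays per group. Columns matched samples by accession, and groups came from the titles.

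The platform annotation gave 1 gene for 21789 probe sets; 1621 with several genes and 12102 not listed were left out. Symbols were updated by gene number to the RefSeq table of GRCm38.p6. Intensities were transformed to log2(intensity + 1), those whose mean lay in the lowest 25% (below 5.56) were dropped, and the probe set with the highest mean was kept per gene, giving 17020 genes. The comparison used R 4.3.3 and limma 3.58.1 (lmFit and eBayes, two-sided, 95% intervals), adjusted by Benjamini-Hochberg over all genes. The test was run on simulated arrays with 17020 genes, few of them changed, where it called 29 of 84100 unchanged genes. The simulated noise was normal, independent between genes and equal in both groups, as the test assumes. This run therefore does not give the rate of false calls on the measured arrays.

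Values on every array are given for called members, Tsc1, Tsc2, Rheb, Mtor, Rptor, Rictor and Ddit4l by rule; other members shown by array were picked with their values in view. The members and lists were chosen with earlier results of these data known. Alternatives were other normalisation, filters, pseudocount (16), probe set choice, variance models, the replicate block, each array left out, control replicate 1 alone and a marrow covariate.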

Additional observations from a re-analysis of the deposited data

How the results depend on the processing

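The differences of the 6 called members kept their sign under every alternative run, and Irs1, Sesn3 and Ddit4 were called in all 15 that changed the normalisation, filter, probe set choice, pseudocount or variance model, added the replicate block or left out 1 array. With 1 array left out, members called higher numbered 3 to 5 and members called lower 0 to 4; other pathway genes called higher numbered 0 to 3 and lower 1 to 2. With array weights (the weights did not converge) 10 members were called higher and 9 lower, and 9 and 13 other pathway genes, among 8006 genes called in all against 2496. With the marrow covariate 0 members and 0 other pathway genes were called by limma in either direction, among 6 genes called in all (7 and 10 at an unadjusted p below 0.05, or 16.7% and 17.5%, against 20.7% of all genes). Other pathway genes called higher were 0 with quantile normalisation, median centring, no filter or the replicate block and 3 with an intensity trend, and those called lower were 0 with a filter at the median, which leaves Pik3cd out. The cause of the other changes was not tested. Deviations from the group mean correlated at 0.08, 0.21 and -0.08 between same-numbered arrays, and at -0.18 to 0.11 between differently numbered ones. Whether the replicate numbers pair the arrays cannot be settled from 3 arrays per group. With the block, 5 members were called, Ddit4l gaining and Eif4ebp1 and Eif4ebp2 losing their call, among 2031 genes in all.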
